A study of Mesocricetus auratus with 6 samples.

Results

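The contractile apparatus of smooth muscle, its calcium and potassium channels and the scaffold that holds it to the membrane were read in the uterus of Syrian golden hamsters on day 5 of pregnancy, when blastocysts attach. The members were 41 genes chosen with earlier results of these data known. Every probe set annotated to exactly 1 of them was taken, whatever its values. The array carried 87 such probe sets for 38 of the 41 genes, out of 22215 probe sets tested and 11963 genes. TPM3, FLNA and SGCD had no probe set named in the annotation used here, and 1 further probe set annotated to DES together with a second gene was left out. The members were read in 2 classes assigned from textbook knowledge, 30 probe sets for 16 muscle-restricted genes and 57 for 22 widely expressed genes. The muscle-restricted genes were ACTG2, ACTA2, MYH11, CNN1, TAGLN, DES, MYLK, SMTN, LMOD1, TPM2, MYL9, PPP1R12B, PDLIM3, PLN, DMD and KCNMB1. A class does not show which cells of the uterus a signal came from.

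The 3 implantation site arrays came from uterine segments around an implanting embryo and the 3 interimplantation site arrays from the segments between embryos. Both groups came from untreated pregnant hamsters at the same stage, and no genotype or strain was given beyond the species. The design text speaks of 3 animals, but the labels tie no array to an animal, so the tests below rest on array-to-array variation among what are described as biological replicates, part of which may be technical. A piece of uterus holds muscle, stroma, epithelium, vessels and, at an implantation site, the embryo, so in all values below fewer muscle cells and less RNA per muscle cell cannot be told apart.

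Smooth muscle contracts when calcium, entering through voltage-gated channels or released from internal stores, binds calmodulin and turns on myosin light chain kinase. Phosphorylated myosin then pulls on actin filaments that are coated with tropomyosin, calponin and caldesmon and anchored in dense bodies. Myosin phosphatase reverses the phosphorylation. Large-conductance potassium channels oppose contraction by hyperpolarising the membrane. In the uterus this apparatus makes up the myometrium, the muscle layer that is kept quiet during most of pregnancy.

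Hamster RNA was hybridised to probes designed on human transcripts, and how well each probe set binds the hamster sequence is unknown. Low signal therefore says nothing firm about whether a transcript was there or whether it changed. Values are log2 RMA values, differences are implantation minus interimplantation on that log2 scale with the standard error (SE) of the limma fit, and adjusted p-values are those of limma over all 22215 probe sets unless genes are named as the basis, with a threshold of 0.05. Array medians ran from 4.18 to 4.20, and 47 of the 87 member probe sets lay at or above the median brightness of 4.19, while 18 lay below the lower quartile of 3.10. Correlations between arrays were 0.989 to 0.995 within groups and 0.985 to 0.992 between groups. Signal from the 3′ part of a control transcript relative to its 5′ part is commonly read as a measure of RNA quality. For actin it was −2.08 ± 0.22 at implantation and −1.70 ± 0.15 at interimplantation sites (log2, SD, n = 3 arrays per group; exact permutation p = 0.1, two-sided, the smallest that 3 against 3 allows). The same ratio for GAPDH was −0.20 ± 0.16 and 0.13 ± 0.17 (SD, n = 3; exact permutation p = 0.2, two-sided). The GAPDH groups overlapped. Relative to the middle of the transcript, the 3′ signal was lower at implantation sites without overlap, with a difference of −0.29 for actin and −0.46 for GAPDH (exact permutation p = 0.1 each, two-sided). The control probes are human as well, so how far these ratios measure RNA quality here is unknown. The part of RNA quality in the results below was not tested.

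Of the 87 member probe sets, 3 passed the threshold as lower at implantation sites and 0 as higher. They read KCNMA1, the pore-forming subunit of the large-conductance calcium-activated potassium channel, TAGLN, the actin-binding protein transgelin, and ACTG2, the gamma-actin of smooth muscle of gut and uterus. The only probe set of MYLK, the myosin light chain kinase, narrowly missed the threshold over probe sets (adjusted p = 0.0553). Among all probe sets 1.06% passed, 0.356% as lower and 0.702% as higher, against 3.45% and 0% of the member probe sets. At an unadjusted p under 0.05 the members had 11 lower and 5 higher, or 12.6% and 5.75%, against 5.23% and 5.27% of all probe sets. The groups did not overlap in 13 member probe sets with the lower values at implantation sites and in 5 with the higher. These are 14.9% and 5.75%, where the shares over all probe sets were 8.3% and 7.72%. The members were chosen with earlier results of these data known, so these shares are descriptive and no test of the set.

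**Figure D1:**
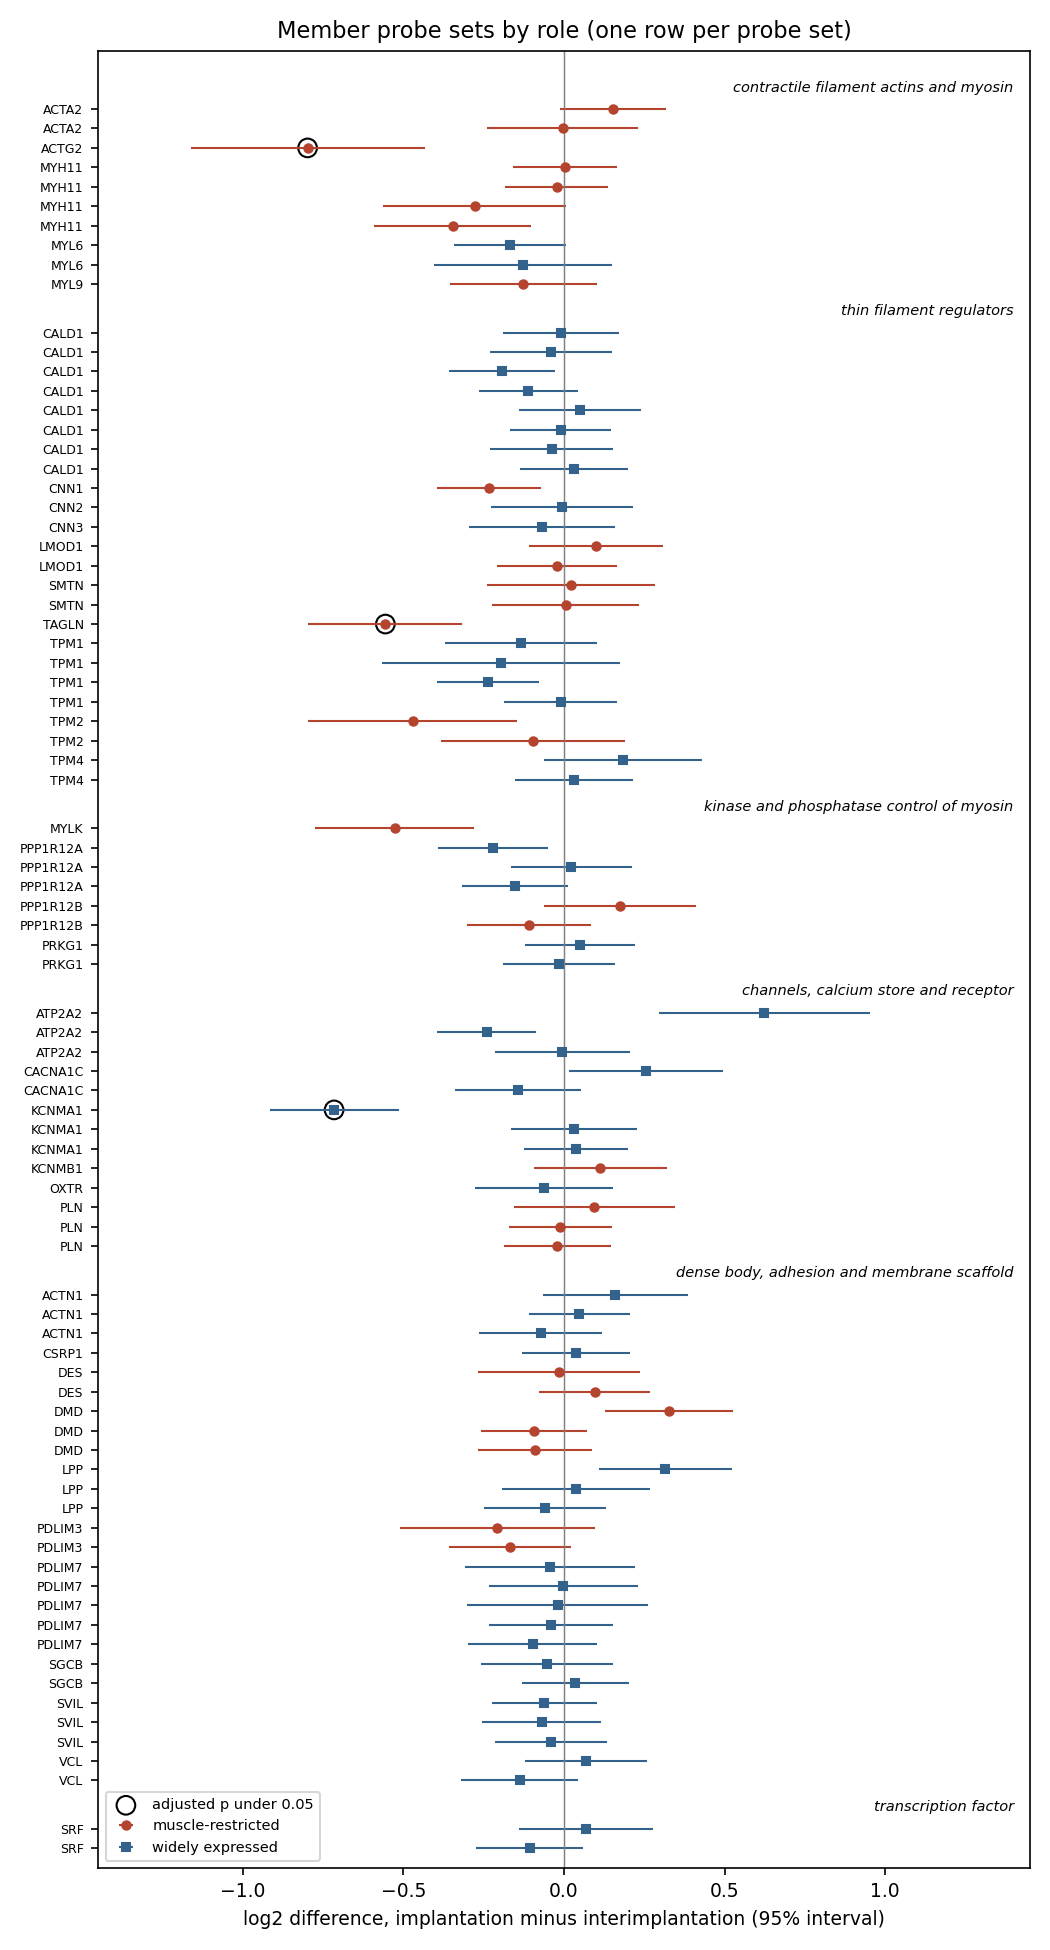
Difference between implantation and interimplantation sites for the member probe sets described here, one row each, ordered by role and gene, with the log2 difference on the horizontal axis and bars for the 95% interval of limma's fit. Rings mark the 3 probe sets past the threshold (ACTG2, TAGLN and KCNMA1), all to the left of 0, while most other intervals span 0.

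Most of the apparatus differed little between the sites, and the muscle-restricted class was split between a few clearly lower genes and a majority near 0. Of its 30 probe sets 2 were called lower (ACTG2, TAGLN) and 6 had an unadjusted p under 0.05 with lower values against 1 with higher values. Their median difference was −0.02, against −0.01 over all probe sets. Of the 57 probe sets of widely expressed members 1 was called lower (KCNMA1), and the median was −0.04. Among them 5 lower and 4 higher had an unadjusted p under 0.05. Over all probe sets 0.356% were called lower, and 5.23% lower and 5.27% higher had an unadjusted p under 0.05. In each class 66.7% of the probe sets had a negative difference, against 53.6% of all probe sets. Of the 84 member probe sets that were not called, 80 had a 95% interval that lay wholly inside a 1.5-fold change in either direction. The other 4 were the probe sets of MYLK, 1 each of TPM2 and MYH11, whose intervals reached beyond a 1.5-fold fall, and 1 of ATP2A2, whose interval reached beyond a 1.5-fold rise. These intervals describe the signal of a probe set, and a human probe that reads a hamster transcript weakly could show less than the transcript's own difference.

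**Figure D2:**
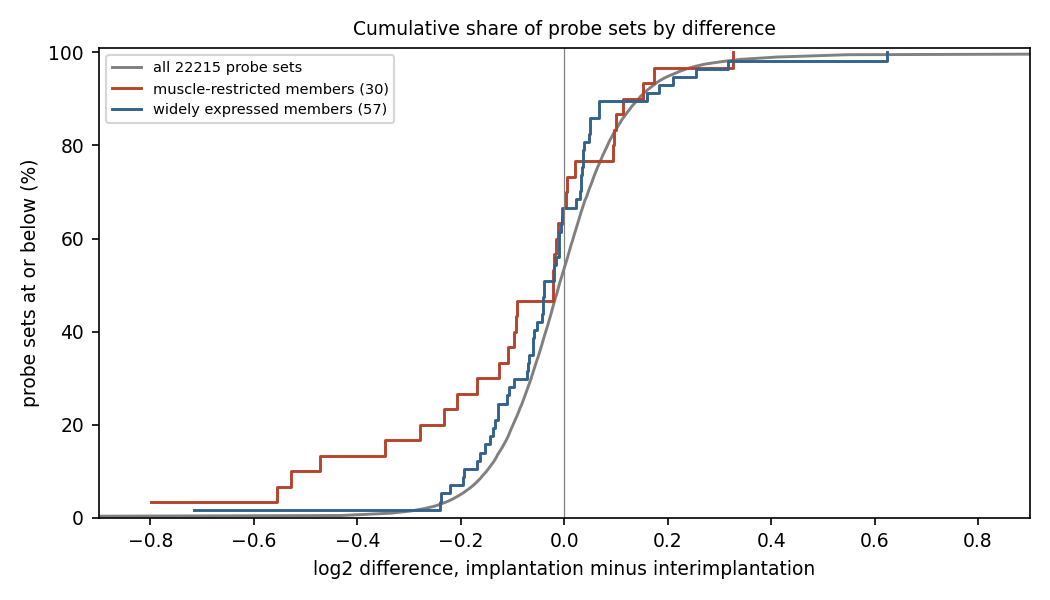
Cumulative share of probe sets, in percent, against the log2 difference, for the 30 muscle-restricted and 57 widely expressed member probe sets and for all 22215 probe sets tested. The muscle-restricted curve runs above the others at strongly negative differences. At 0 both member curves stand at 66.7%, above the 53.6% of all probe sets. The medians were −0.02, −0.04 and −0.01.

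Among the filament proteins, the 2 smooth muscle actins gave different readings. ACTG2 (probe set 202274_at, its only one) read 6.26, 5.86 and 6.33 on implantation arrays 1, 2 and 3, and 6.73, 7.36 and 6.75 on the interimplantation arrays. All 3 implantation arrays were below all 3 interimplantation arrays, and interimplantation array 2 stood above the other two of its group. The group means were 6.15 ± 0.25 and 6.95 ± 0.36 (SD, n = 3), a 1.74-fold fall (log2 −0.80 ± 0.17 SE, adjusted p = 0.0488). Leaving out arrays in turn, the call held without interimplantation array 1 (adjusted p = 0.0367) and failed for each other array (0.0840 to 0.146). It was also lost after cyclic loess (0.0540) and after median centring (0.0575), with the difference itself nearly unmoved.

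ACTA2, the alpha-actin of vascular and other smooth muscle, read 6.50, 6.41 and 6.45 at implantation and 6.22, 6.38 and 6.30 at interimplantation sites at its brighter probe set (200974_at). The implantation arrays were the higher ones without overlap, by a small amount that did not pass (log2 0.15, 95% interval −0.01 to 0.32, adjusted p = 0.520). Its second, dimmer probe set was at 0.00. Taken within each array, the log2 ratio of the ACTG2 to the ACTA2 probe set was −0.24, −0.55 and −0.13 at implantation and 0.50, 0.98 and 0.45 at interimplantation sites. The ratio was lower on all 3 implantation arrays, by 0.95 in the mean (exact permutation p = 0.1, the smallest possible, two-sided). This pair, 2 further pairs of genes and 3 pairs of probe sets below, 6 in all, were chosen after their values were seen. Each had a permutation p of 0.1, which was also 0.1 after Benjamini-Hochberg adjustment over the 6. Chosen in this way, the pairs give p-values that are no evidence of a difference. ACTG2 was lower and ACTA2 higher without overlap, so their ratio had to separate. Actin genes are near-identical in their coding parts, so probes of one can read another. The probe set of ACTA1, the actin of skeletal muscle, was at −0.51 and had an adjusted p of 0.0513 over genes. The brighter probe set of ACTC1, the actin of heart muscle, was at 0.08 (adjusted p = 0.780 over genes), and its groups overlapped. Whether any actin probe set read another actin here was not tested.

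MYH11, the smooth muscle myosin heavy chain, had 4 probe sets that did not tell one story. The 2 brighter ones were level between the groups. The brightest (201497_x_at) read 5.29, 5.37 and 5.31 at implantation and 5.25, 5.38 and 5.33 at interimplantation sites, a difference of 0.00 with a 95% interval from −0.16 to 0.16, and the next was at −0.02. The 2 dimmer ones, both under the median brightness, were at −0.28 (unadjusted p = 0.0548) and −0.35 (unadjusted p = 0.00943, adjusted p = 0.249). The dimmest (201496_x_at) read 3.35, 3.50 and 3.52 against 3.55, 4.02 and 3.84, so interimplantation array 1 lay next to the implantation arrays and the other two apart. Without that array the dimmest probe set passed (log2 −0.47, adjusted p = 0.0409). The within-array ratio of the dimmest to the brightest was lower on all 3 implantation arrays, by 0.35 in the mean.

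The light chains of myosin were slightly lower without passing. MYL6, the essential light chain of smooth and non-muscle myosin, was at −0.17 and −0.13 at its 2 probe sets (smallest unadjusted p = 0.0570), and MYL9, the regulatory light chain that the kinase phosphorylates, was at −0.13 (adjusted p = 0.743). MYL9 was dim here, with a mean level of 3.32 over the 6 arrays.

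**Figure D3:**
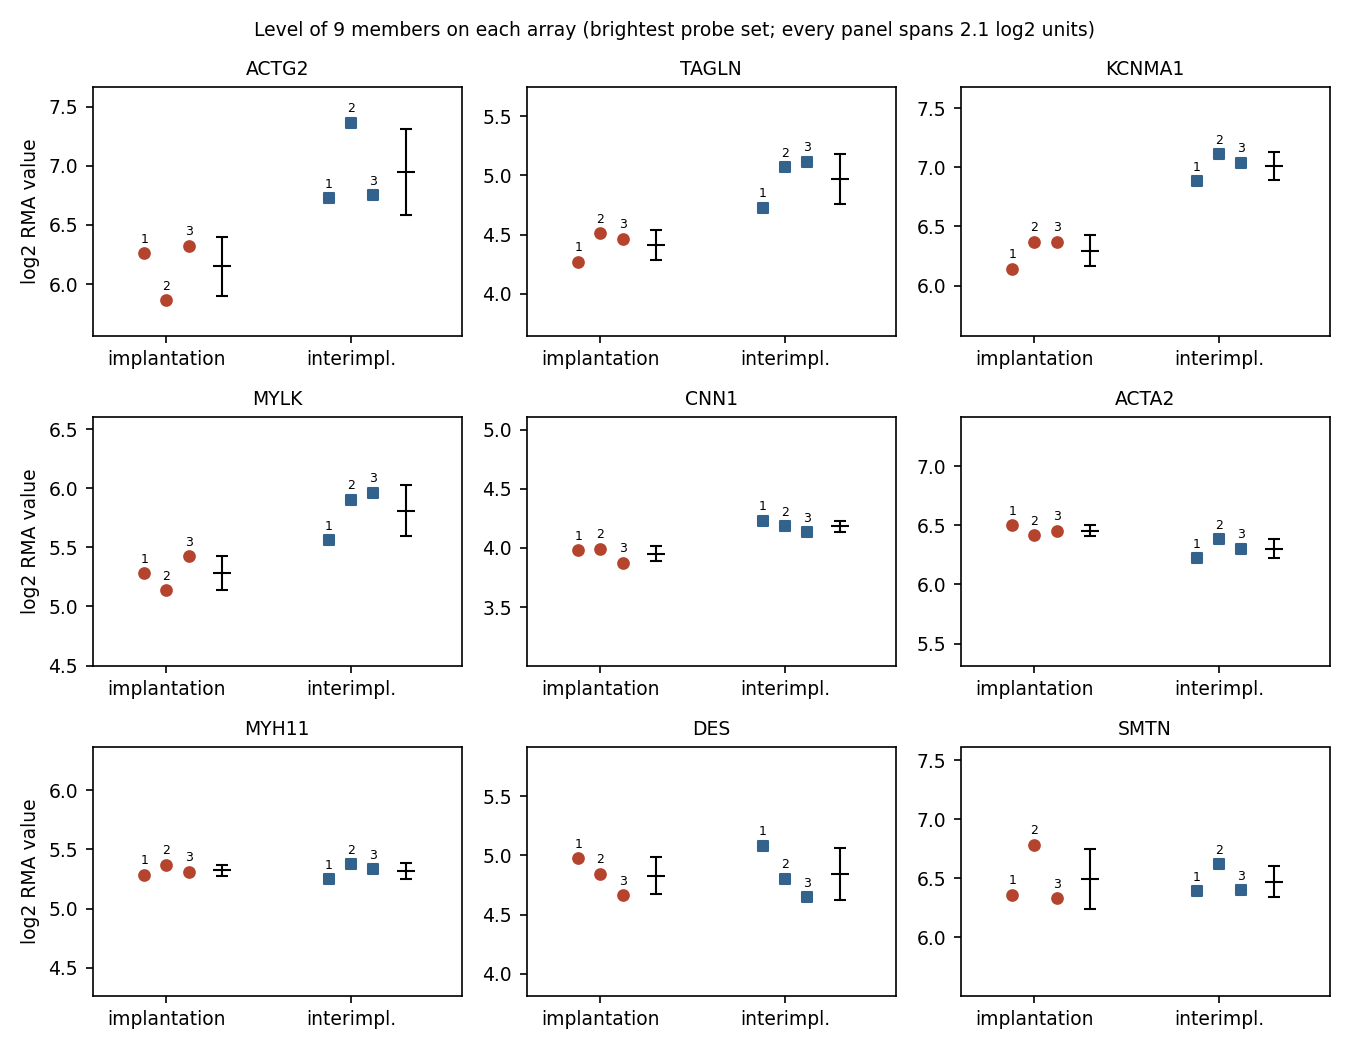
Log2 RMA value of 9 members at their brightest probe set on each array, with implantation sites in circles and interimplantation sites in squares, the replicate number above each point, and group mean and SD (n = 3) as a bar at the right of each group. The groups do not overlap in ACTG2, TAGLN, KCNMA1, MYLK and CNN1, where implantation sites are lower, or in ACTA2, where they are slightly higher, and overlap in MYH11, DES and SMTN.

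Of the proteins that coat or cap the thin filament, TAGLN fell, and CNN1, TPM1 and TPM2 had negative differences that did not pass. TAGLN, an early and abundant marker of smooth muscle, read 4.27, 4.51 and 4.46 at implantation and 4.73, 5.07 and 5.12 at interimplantation sites (205547_s_at). The lowest interimplantation value, that of array 1, lay above the highest implantation value. Means were 4.41 ± 0.13 and 4.97 ± 0.21 (SD, n = 3), a 1.47-fold fall (log2 −0.56 ± 0.11 SE, adjusted p = 0.0369). Without interimplantation array 1 the difference was −0.68 (adjusted p = 0.00552), and with each other array left out the call failed (adjusted p 0.0679 to 0.158).

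CNN1, the calponin of smooth muscle, which restrains the actin-activated ATPase of myosin, read 3.98, 3.99 and 3.88 against 4.23, 4.18 and 4.13. The groups were tight and did not overlap, with a difference of −0.23 ± 0.07 SE that did not pass (adjusted p = 0.244). The CNN1 probe set lay a little under the median brightness, at a mean level of 4.07. TPM2, the beta-tropomyosin of muscle, read 4.27, 3.96 and 4.06 against 4.27, 4.95 and 4.49 at one probe set. Interimplantation array 1 equalled the highest implantation array there, and the difference of −0.47 ± 0.15 SE did not pass (adjusted p = 0.239) and was −0.28 without interimplantation array 2, while the second probe set was at −0.10. TPM1, the alpha-tropomyosin, was below 0 at all 4 of its probe sets, from −0.24 to −0.01, with the smallest p at 206117_at (log2 −0.24, adjusted p = 0.217).

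The other regulators of the thin filament were near 0. SMTN, smoothelin, a marker of contractile smooth muscle, read 6.36, 6.78 and 6.33 at implantation and 6.39, 6.62 and 6.40 at interimplantation sites. Array 2 was the highest of each group, and the difference was 0.02 (95% interval −0.24 to 0.28). LMOD1, the leiomodin that nucleates actin filaments, was at 0.10 and −0.02. Of the 8 probe sets of CALD1, caldesmon, 1 had an unadjusted p under 0.05 (214880_x_at, log2 −0.19, adjusted p = 0.367), and 8 of 8 lay under the median brightness. The non-muscle relatives CNN2 and CNN3 were at −0.01 and −0.07, and TPM4 was at 0.18 and 0.03.

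Of the enzymes that set myosin phosphorylation, neither the kinase nor the phosphatase subunits were called over probe sets. The kinase came closest, with lower values at implantation sites (adjusted p = 0.0553). MYLK read 5.28, 5.14 and 5.43 at implantation and 5.56, 5.90 and 5.96 at interimplantation sites (202555_s_at). Groups did not overlap, although implantation array 3 and interimplantation array 1 lay close. Means were 5.28 ± 0.15 and 5.81 ± 0.22 (SD, n = 3), a 1.44-fold difference (log2 −0.53 ± 0.11 SE). With the test run over genes in place of probe sets it passed (adjusted p = 0.0477), and without interimplantation array 1 it passed over probe sets as well (log2 −0.65, adjusted p = 0.00949). With each of the other 5 arrays left out it failed, over genes (adjusted p 0.0592 to 0.188) and over probe sets (0.0865 to 0.208).

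PPP1R12B, the myosin-binding subunit of myosin phosphatase of muscle, was at 0.17 and −0.11 at its 2 probe sets. The within-array ratio of MYLK to the brighter PPP1R12B probe set was 0.29, 0.07 and 0.27 at implantation and 0.89, 1.01 and 0.83 at interimplantation sites, lower on all 3 implantation arrays. The related subunit PPP1R12A was dim at all 3 probe sets, with the smallest p at −0.22 (adjusted p = 0.300). PRKG1, the cGMP-dependent kinase that relaxes smooth muscle, was at 0.05 and −0.02.

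KCNMA1 had the clearest difference of all members. Its channel opens with calcium and depolarisation and lets potassium out of the cell; it is strong in smooth muscle and also found in nerve, epithelium and other cells, and it is therefore grouped here with the widely expressed genes. At probe set 221584_s_at it read 6.14, 6.37 and 6.37 on the implantation arrays and 6.88, 7.11 and 7.04 on the interimplantation arrays. Both groups were tight, and the highest implantation value lay well below the lowest interimplantation value. Means were 6.29 ± 0.13 and 7.01 ± 0.12 (SD, n = 3), a 1.64-fold fall (log2 −0.72 ± 0.09 SE, adjusted p = 0.00334), and the call held without any 1 of the 6 arrays (adjusted p 0.00342 to 0.0193). The other 2 probe sets of KCNMA1 were dim, with mean levels of 3.17 and 3.16 against a median of 4.19 for all probe sets, and stood at 0.03 and 0.04. The within-array ratio of the bright probe set to 221583_s_at was lower on all 3 implantation arrays, by 0.75 in the mean. With the mean of its 3 probe sets the gene was at −0.22 and did not pass (adjusted p = 0.270 over genes).

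KCNMB1, the beta subunit that tunes this channel in smooth muscle, was not called. It was at 0.11 (95% interval −0.09 to 0.32, adjusted p = 0.746), with means of 5.67 ± 0.08 and 5.56 ± 0.17 (SD, n = 3). The within-array ratio of KCNMA1 to KCNMB1 was 0.45, 0.63 and 0.79 at implantation and 1.21, 1.48 and 1.68 at interimplantation sites, so the ranges were separate, by 0.83 in the mean.

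**Figure D4:**
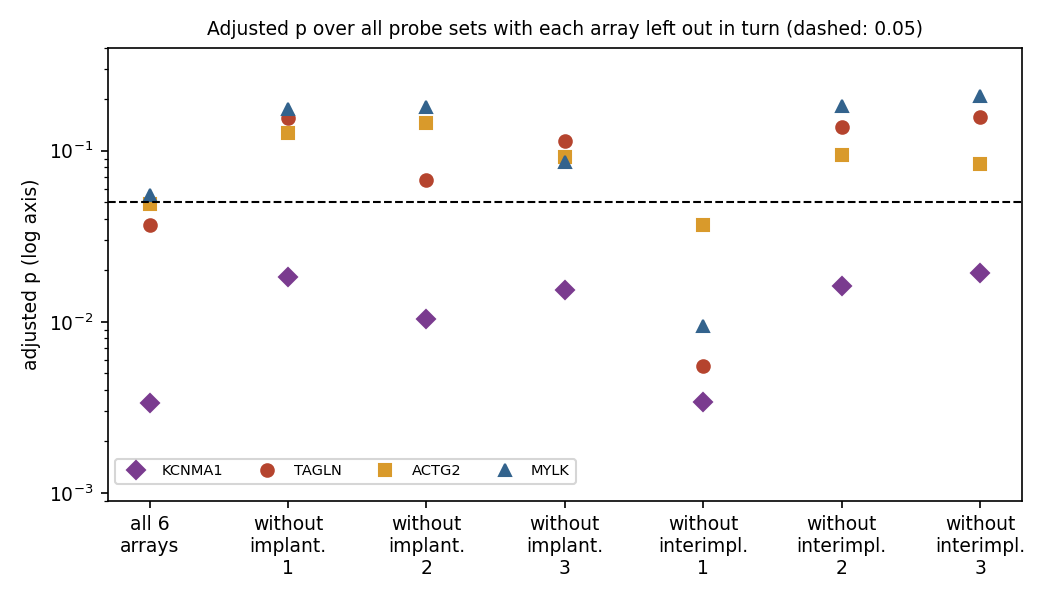
Adjusted p over all probe sets, on a log axis, for the probe sets of KCNMA1, TAGLN, ACTG2 and MYLK with all 6 arrays and with each array left out in turn; the dashed line is the threshold of 0.05. KCNMA1 stays under the line in every setting shown, with 0.0193 as its highest value, while the other 3 lie under it without interimplantation array 1 and above it without each other array; with all 6, MYLK lies just above.

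The calcium pump of the internal store gave opposite readings. ATP2A2, the pump SERCA2, read 7.08, 7.33 and 7.39 at implantation and 6.60, 7.01 and 6.31 at interimplantation sites at its brightest probe set (209186_at). The implantation arrays were all higher, with a wide spread among the interimplantation arrays, and the difference of 0.62 ± 0.15 SE did not pass (adjusted p = 0.0900) except without interimplantation array 2 (log2 0.81, adjusted p = 0.0146). A second probe set (212362_at) read 4.90, 4.90 and 4.97 against 5.18, 5.14 and 5.17, lower at implantation sites without overlap (log2 −0.24 ± 0.07 SE, unadjusted p = 0.00554, adjusted p = 0.186). The third was at 0.00. ATP2A2 was the 1 member with an unadjusted p under 0.05 in both directions. The within-array ratio of the first to the second probe set was higher on all 3 implantation arrays, by 0.86 in the mean. The ratio had to separate, since these probe sets were without overlap in opposite directions.

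The remaining channel and receptor genes were not called. CACNA1C, the pore of the L-type calcium channel, was at 0.26 at its brighter probe set (adjusted p = 0.438) and at −0.14 at a dim one. PLN, phospholamban, which inhibits the pump, lay between −0.02 and 0.09 at 3 probe sets, all under the median brightness. OXTR, the oxytocin receptor, whose rise at term readies the uterus for labour, was dim, with a mean level of 3.24, and stood at −0.06 (95% interval −0.28 to 0.15).

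**Figure D5:**
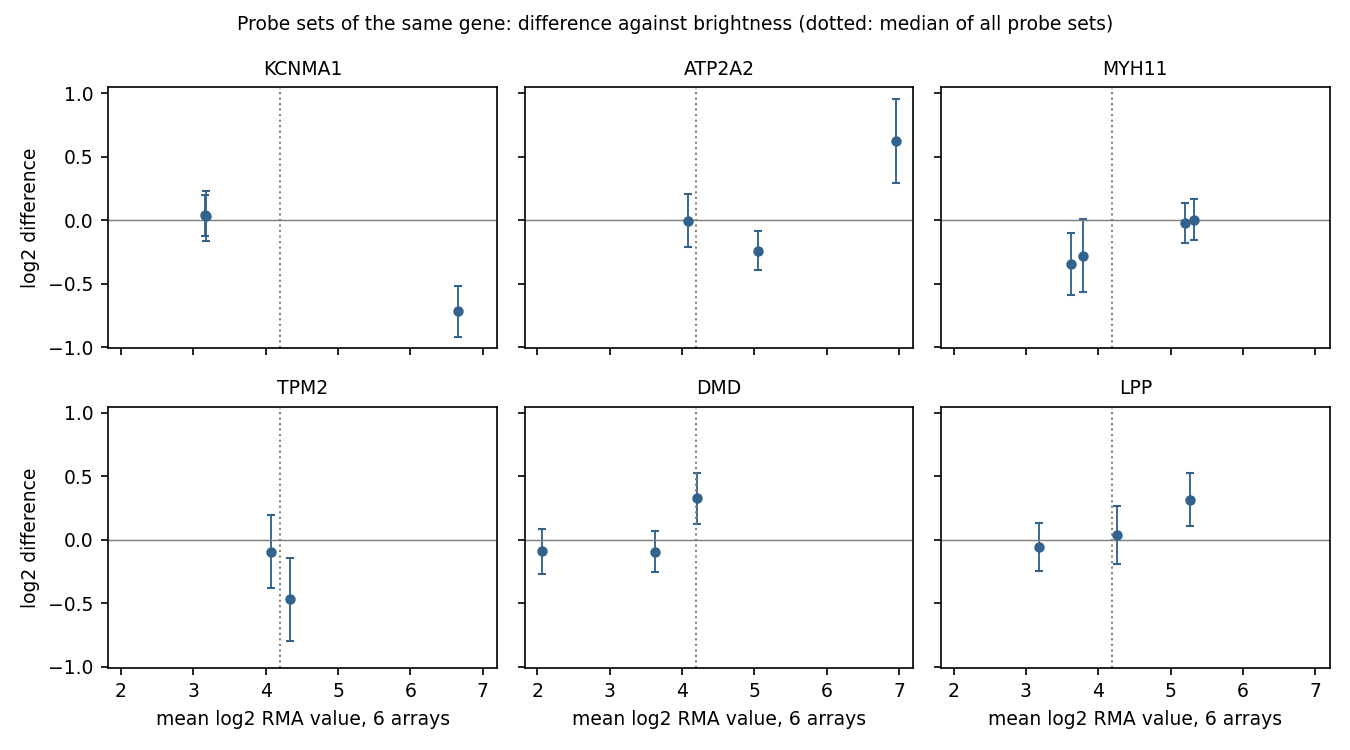
Log2 difference with 95% interval (vertical) against the mean log2 RMA value over the 6 arrays (horizontal) for each probe set of 6 members with several probe sets; the dotted line is the median brightness of all probe sets, 4.19. In KCNMA1 the bright probe set is low and the dim pair is at 0, in ATP2A2 the probe sets lie on both sides of 0, and in MYH11 the dim pair is the lower one.

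The scaffold that ties the filaments to dense bodies and the membrane was close to level, with a median difference of −0.04 over 26 probe sets. Of these 0 were called and 2 were higher at an unadjusted p under 0.05. These shares, 0% and 7.69%, lay near the 1.06% and 5.27% of all probe sets. DES, desmin, the intermediate filament of muscle that decidual cells of rodents also make, read 4.98, 4.84 and 4.66 against 5.08, 4.80 and 4.65, and the difference was −0.02 (95% interval −0.27 to 0.24). The 2 groups overlapped. DMD, dystrophin, which links actin to the membrane complex, read 4.25, 4.49 and 4.39 against 3.91, 4.08 and 4.15 at its brightest probe set (207660_at). Implantation arrays were higher without overlap (log2 0.33 ± 0.09 SE, adjusted p = 0.153), while the 2 dimmer probe sets were both at −0.09. LPP, a LIM protein of focal adhesions that is rich in smooth muscle, read 5.40, 5.29 and 5.59 against 5.19, 5.16 and 4.98, also higher without overlap (log2 0.32 ± 0.09 SE, adjusted p = 0.207), with its other probe sets at 0.04 and −0.06.

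Other scaffold members had no unadjusted p under 0.05. PDLIM3, an actinin-binding protein of muscle, was at −0.21 and −0.17, and PDLIM7 lay between −0.10 and 0.00 at 5 probe sets. ACTN1, an alpha-actinin, lay between −0.07 and 0.16, VCL, vinculin, between −0.14 and 0.07, and SVIL, supervillin, between −0.07 and −0.04. CSRP1, a LIM protein of smooth muscle, was at 0.04 and the sarcoglycan SGCB at −0.05 and 0.04. SRF, the transcription factor that binds CArG boxes in front of many of these genes, was level as well, at 0.07 and −0.11 (smallest adjusted p = 0.689).

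Read as genes, each at its brightest probe set, 4 of 38 members passed as lower (KCNMA1, ACTG2, MYLK and TAGLN) and 0 as higher, or 10.5% and 0%. Of all 11963 genes 1.24% passed, 0.46% as lower and 0.777% as higher. At an unadjusted p under 0.05 there were 7 lower and 5 higher members, or 18.4% and 13.2%, against 5.22% and 5.68% of all genes. The groups did not overlap in 6 members with lower and 5 with higher values at implantation sites, or 15.8% and 13.2%. Over all genes the shares were 8.09% and 8.36%. As the members were chosen with earlier results of these data known, the shares in this paragraph are descriptive only. The 4 called genes were 3 of 16 classed as muscle-restricted (ACTG2, MYLK and TAGLN) and 1 of 22 classed as widely expressed. The cells this signal came from were not tested. The median difference over the 38 was −0.01, the same as over all genes to this precision. Without any 1 of the arrays other than interimplantation array 1, the count of members called lower dropped from 4 to 1, KCNMA1.

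In the wider contraction pathway, 60 of 70 listed genes were measured beside the members. Of these 2 passed as lower and 0 as higher over genes, with a median difference of 0.01. Over all genes 0.46% passed as lower and 0.777% as higher, shares that apply to each list below as well. PLCB4, a phospholipase C beta that makes the calcium-releasing messenger IP3, was at −0.39 ± 0.08 SE (adjusted p = 0.0444 over genes), with 3.72, 3.95 and 3.78 against 4.26, 4.18 and 4.18. The groups were separate, and the call held without implantation array 2 alone among the 6 left out in turn (highest adjusted p 0.175). PLCB4 lay under the median brightness.

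Of 22 measured genes that control smooth muscle transcription, 1 passed as lower and 0 as higher, with a median of 0.00. MEF2A, a MADS box factor related to SRF, read 7.49, 7.57 and 7.34 at implantation sites and ran from 7.84 to 8.09 on the interimplantation arrays (log2 −0.51 ± 0.09 SE, adjusted p = 0.0171 over genes), and all 3 of its probe sets were lower with an unadjusted p under 0.05. It missed the threshold without implantation array 1, implantation array 3 or interimplantation array 2 (adjusted p 0.0567, 0.0935 and 0.0799), with its probe sets averaged (0.0697) and at its most variable probe set (log2 −0.58, 0.109). The gene with the next smallest p was ELK4, an SRF partner, at −0.24 (adjusted p = 0.279 over genes), with its other probe sets at 0.06 and −0.04 and an average over the 3 of −0.07. Of 33 measured further genes of dense bodies and adhesions, 1 passed as lower and 0 as higher, with a median of 0.00. It was SGCE, epsilon-sarcoglycan, a relative of the members SGCB and SGCD, at −0.53 ± 0.10 SE (adjusted p = 0.0202 over genes), with 4.53, 4.75 and 4.46 against 4.96, 5.21 and 5.17. SGCE missed the threshold without any 1 of 4 arrays: implantation 1 or 3 and interimplantation 2 or 3 (adjusted p 0.0854 to 0.103). PALLD, palladin, was next at 0.35 (adjusted p = 0.205 over genes).

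Of 10 measured non-muscle actin and myosin genes, 1 passed as higher and 0 as lower, with a median of 0.06. TMSB10, thymosin beta 10, which binds actin monomers, read 10.7, 10.4 and 10.7 at implantation and 9.40, 9.90 and 9.88 at interimplantation sites (log2 0.89 ± 0.13 SE, adjusted p = 0.00486 over genes). After repeated quantile normalization the TMSB10 difference shrank to 0.61 and still passed (adjusted p = 0.0177 over genes). PFN1, profilin, was next at 0.51 (adjusted p = 0.142 over genes), or 0.30 without interimplantation array 1.

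The defining genes of smooth muscle were read on every array, with 8 of 10 measured and 7 of these at or above the median brightness. Their mean level ran from 5.14 to 5.18 on implantation and from 5.30 to 5.39 on interimplantation arrays, without overlap. The separation rested on ACTG2 and TAGLN, since the other 6 lay at 5.05 to 5.15 against 5.09 to 5.15, with a mean difference of −0.01. Of the markers of other cell types, 0 of 19 for epithelium, 0 of 23 for striated muscle and 0 of 10 for pericytes were called. For trophoblast and embryo 0 of 13 were called. The mean levels of these lists overlapped between groups. Over all genes 1.24% passed, so 0 calls in lists this short do not show that a cell type was level. The stroma and decidua list had 1 fall in 17 (PDGFRA, log2 −0.66) with levels of 5.59 to 5.59 against 5.55 to 5.64, and the leukocyte list 1 fall in 19 (SPI1, log2 −0.49) with 4.44 to 4.46 against 4.46 to 4.47. The endothelium list had 1 fall in 15 (SOX17, log2 −0.78) and lay lower at implantation sites without overlap, at 4.35 to 4.37 against 4.44 to 4.50, and at 4.29 to 4.32 against 4.34 to 4.41 without SOX17. The mesothelium list had 1 rise in 6 (WT1, log2 0.74) and a mean level of 4.05 to 4.08 against 3.91 to 4.02. This separation rested on WT1, since the other 5 genes lay at 3.39 to 3.47 against 3.41 to 3.52. It is a reading of 1 gene and not of mesothelium, and the cells WT1 signal came from were not tested. RMA values have no true 0, so no marker could be read as absent, and the part of these shifts in the muscle results was not tested.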

How the data were processed

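RNA from 3 implantation and 3 interimplantation sites was hybridised to a human Affymetrix array. The deposited values are log2 signals from RMA, run in Partek 6.6 per the submitters' processing notes. Sources used here state neither log base nor settings; values from 1.65 upward were read as log2. Of 22283 probe sets, 68 controls were left out; the other 22215 comprised 19065 with a single gene name, 1043 with more and 2107 with none. RefSeq's hamster genes (BCM_Maur_2.0), used for names only, held 37 of the 38 measured symbols.

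The test was limma's (version 3.58.1, R 4.3.3; lmFit and eBayes on 2 groups without covariates, two-sided), with Benjamini-Hochberg adjustment over all probe sets or all genes, tested on simulated data. A gene was read at its probe set with the highest mean. Named were members past the threshold, 8 core muscle genes (ACTG2, ACTA2, MYH11, CNN1, TAGLN, DES, MYLK, SMTN), the smallest p of each other member, members whose probe sets had an unadjusted p under 0.05 in both directions and, in wider lists, genes past the threshold and otherwise the 2 smallest p. Members and lists were chosen with earlier results of these data known. Alternatives were 3 normalizations, 2 filters on dim probe sets, another variance model, array weights, a replicate block, other choices of probe set, and leaving out each array. Batches were not analysed, for want of dates in the material used here. The number of arrays limits the precision. Values of 2 members and 1 pathway gene are not reported here, though they stand in the counts.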

Additional observations from a re-analysis of the deposited data

How the results depend on the processing

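KCNMA1 kept its direction and its call at its bright probe set in the 9 settings that retained it and in the 6 that left out an array. The count of member probe sets called lower, 3 as deposited, ranged from 1 to 5 without single arrays. It was 0 without probe sets whose IDs end in _x_at or _s_at. That filter removes the bright probe set of KCNMA1 and the only ones of TAGLN and MYLK. It leaves that of ACTG2, unmoved at −0.80 but not called (adjusted p = 0.0743 over probe sets, 0.0542 over genes). The count called higher, 0, ranged from 0 to 1. For genes, 4 lower ranged from 1 to 4 without single arrays. It was 0 without _x_at and _s_at probe sets and 1 (TAGLN) when all probe sets of a gene were averaged. The count of genes called higher, 0, ranged from 0 to 1, and was 1 (ATP2A2) with the replicate block as a fixed term. Whether the replicate numbers pair the arrays could not be decided from 3 arrays per group. Same-numbered arrays correlated at 0.05, 0.00 and 0.07 in their deviations, and other pairs from −0.07 to 0.02. Arrays 1 and 3 of each group correlated best with their own number, and arrays 2 did not. With the replicate block as a fixed term, 3 member probe sets were lower, with MYLK passing (adjusted p = 0.0358) and ACTG2 not (0.0785). The median difference of muscle-restricted probe sets, −0.02, was −0.049 with array weights, 0.0085 without _x_at and _s_at probe sets, and −0.074 to −0.0042 without single arrays. For widely expressed ones, −0.04, it was −0.021 after repeated quantile normalization and after cyclic loess, and −0.018 with array weights. It was −0.020 without _x_at and _s_at probe sets, and −0.043 to −0.016 without single arrays. KCNMA1 as a gene was at 0.031 without _x_at and _s_at probe sets, where only a dim probe set is left. Differences near 0 changed sign: MYH11 with array weights (−0.0062) and without single arrays (−0.032 to 0.032), SMTN with array weights (−0.017) and without single arrays (−0.12 to 0.10), and DES without single arrays (−0.11 to 0.10). For each of these the cause was not tested beyond the probe sets named. The direction of ACTG2, TAGLN and MYLK was the same in every setting run on their probe sets. MYLK at its probe set passed with either filter on brightness (0.0390 and 0.0463), the other variance model (0.0472), array weights (0.0322) and the replicate block as a random term (0.0453). Over genes, MYLK was not called with cyclic loess (0.0513), median centring (0.0528) or probe sets averaged (0.0677), nor ACTG2 with averaging (0.0697) or the fixed replicate block (0.0677). PLCB4 missed the threshold with that block (0.0676), the other variance model (0.0501) and _x_at and _s_at probe sets removed (0.0554). It also missed with the most variable probe set (0.0523) and averaging (log2 −0.28). Brightness limits what dim probe sets can show.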
